A study of Danio rerio with 6 samples.

Results

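Mural cells are the contractile and supporting cells wrapped around blood vessels, and the 10 transcripts described here are genes known from them, chosen by name from the 25920 genes of the deposited table and all present in it. They were divided by known role into 4 pericyte genes (notch3, pdgfrb, rgs5a and rgs5b), 5 smooth muscle genes (acta2, tagln, cnn1b, itga8 and desmb) and pdgfra, the PDGF receptor alpha gene, which is known from mesenchyme rather than from pericytes alone. The division does not mean that a gene is limited to the cell type it is listed under. RNA came from zebrafish carrying Tg(myl7:mCherry), a transgene in which the myl7 promoter labels heart muscle cells, collected at 96 hours post fertilization (hpf). From 60 hpf the control fish were kept in the solvent DMSO and the treated fish in 100 µM DAPT, which blocks gamma-secretase, the enzyme that frees the active part of Notch receptors after they bind a ligand. Each group had 3 libraries, every fish in both groups carried the transgene, and the exposure to DAPT was not limited to mural cells.

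Pericytes sit on capillaries and small vessels and share a basement membrane with the endothelium. Endothelial cells release PDGF-B, which draws in pericytes through the receptor encoded by pdgfrb, and Jagged or Delta ligands on the endothelium signal to Notch3 on the mural cell. Smooth muscle cells, by contrast, are defined by a contractile apparatus of smooth muscle actin, transgelin and calponin, and also surround the gut, the swim bladder and the cardiac outflow tract.

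Libraries held 20542549 to 20656633 estimated counts with DMSO and 21439371 to 21808613 with DAPT. Whether replicate libraries were made from separate clutches is not given in the labels, and the p-values reflect only how far these libraries differ, which can be technical. The labels give hearts as the tissue, while the design text of the series speaks of embryos, and each library held markers of other tissues beside heart muscle. The summed level of 6 heart muscle markers was 2885 to 3511 TPM (transcripts scaled for length and library size) with DMSO, beside 5170 to 6568 TPM for 6 skeletal muscle markers, 986 to 1252 TPM for 6 radial glia and neural progenitor markers and 740.1 to 803 TPM for 4 gut epithelium markers. Pericyte and smooth muscle markers were also present, as described below, so the values are those of mixed tissue. Unless TPM is named, levels are CPM (counts scaled to a common library size with TMM factors), changes are log2 fold changes (DAPT minus DMSO) ± standard error, and adjusted p-values come from edgeR's quasi-likelihood test with Benjamini-Hochberg adjustment over 22092 genes. A gene is said to have risen or fallen where its adjusted p was below 0.05.

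All 4 pericyte genes fell with DAPT, whereas the 5 smooth muscle genes split into 2 that rose, 1 that fell and 2 that did not pass, and pdgfra did not pass. The background was high: 46.6% of all genes tested passed, 24.3% lower and 22.4% higher. The median log2 fold change was -0.85 over the 4 pericyte genes and 0.02 over the 5 smooth muscle genes, beside -0.0043 over all genes tested. The CPM values of the DMSO and DAPT libraries did not overlap in 7 of the 10 genes, with DAPT below in 5 and above in 2, where this was so for 56.8% of all genes tested, 29% below and 27.8% above. All 10 genes passed the filter on low counts, and none of them had a fractional count, so none was taken to include reads divided among similar genes.

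**Figure D1:**
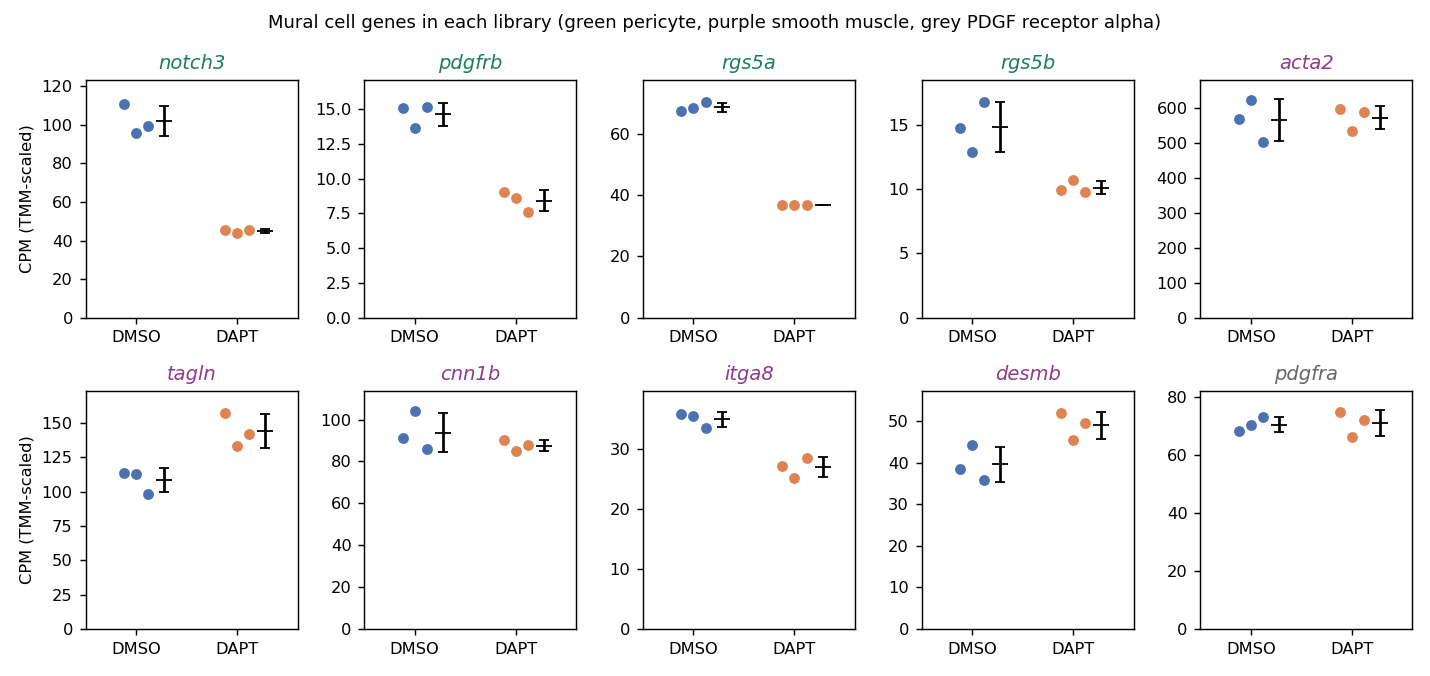
Each panel plots TMM-scaled CPM (vertical axis, from 0) of 1 gene in the 3 DMSO and the 3 DAPT libraries, with the mean and SD as a bar beside the points. The DAPT points lie below all DMSO points for notch3, pdgfrb, rgs5a, rgs5b and itga8, above them for tagln and desmb, within their range for acta2, and overlap with them for cnn1b and pdgfra.

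The receptor gene notch3 (gene ID 58066) had the largest fall of the 10. It measured 111, 95.8 and 99.7 CPM in DMSO replicates 1 to 3, and 45.3, 43.7 and 45.5 CPM in DAPT replicates 1 to 3. The lowest DMSO library thus lay well above the highest DAPT library, and the DAPT libraries were close together. The level fell to 43.9% of that with DMSO (log2 fold change -1.19 ± 0.06, adjusted p = 5.82e-08), and 4.16% of all genes tested had a lower log2 fold change. In bulk tissue, fewer cells of a type and less RNA per cell cannot be told apart, here and for each gene below. The gene notch3 is also known from neural progenitors. Of the 6 radial glia and neural progenitor markers 4 fell and 2 did not pass, where 24.3% of all genes tested fell. Their summed level went from 986 to 1252 TPM with DMSO to 318 to 374 TPM with DAPT, with none of the 6 at 0. The largest part of that sum was fabp7a, with a mean of 785 TPM with DMSO and 154 TPM with DAPT. The gene fabp7a was named after its values were seen. The part of these markers in the notch3 result was not tested.

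The gene pdgfrb (gene ID 559529) encodes the receptor for endothelial PDGF-B and is a classical pericyte marker. It was counted at 315, 288 and 332 reads in DMSO replicates 1 to 3 and at 189, 176 and 161 reads in DAPT replicates 1 to 3. In each DAPT library it had the fewest reads of the 10 genes. Scaled, these were 15.1, 13.7 and 15.1 CPM with DMSO and 9.04, 8.59 and 7.57 CPM with DAPT, and the groups did not overlap. The level fell to 57.4% of that with DMSO (-0.80 ± 0.10, adjusted p = 3.21e-05). Per transcript length it was also the lowest of the 10, at 6.36 ± 0.333 TPM with DMSO and 3.21 ± 0.198 TPM with DAPT (SD, n = 3). Among 8 fibroblast markers in this mixed tissue, 4 fell and 4 did not pass, where 24.3% of all genes tested fell. The part of fibroblasts or other cell types in the pdgfrb result was not tested.

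The genes rgs5a and rgs5b encode regulators of G protein signalling, and rgs5a is a marker of pericytes. The gene rgs5a (gene ID 573765) measured 67.5, 68.5 and 70.4 CPM with DMSO and 36.7, 36.8 and 36.9 CPM with DAPT. The 3 DAPT libraries were nearly equal, and the log2 fold change of -0.90 ± 0.05 (adjusted p = 1.17e-07) had the smallest standard error of the 10. The paralogue rgs5b (gene ID 550519) measured 14.8, 12.9 and 16.8 CPM with DMSO and 9.90, 10.7 and 9.78 CPM with DAPT. Its DMSO libraries spread more, and its fall to 68.3% of the DMSO level was the smallest of the 4 pericyte genes (-0.55 ± 0.11, adjusted p = 0.00106). Its 95% interval, -0.78 to -0.32, did not overlap that of notch3, -1.33 to -1.05. None of these 4 pericyte calls was lost in any of 15 alternative fits.

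**Figure D2:**
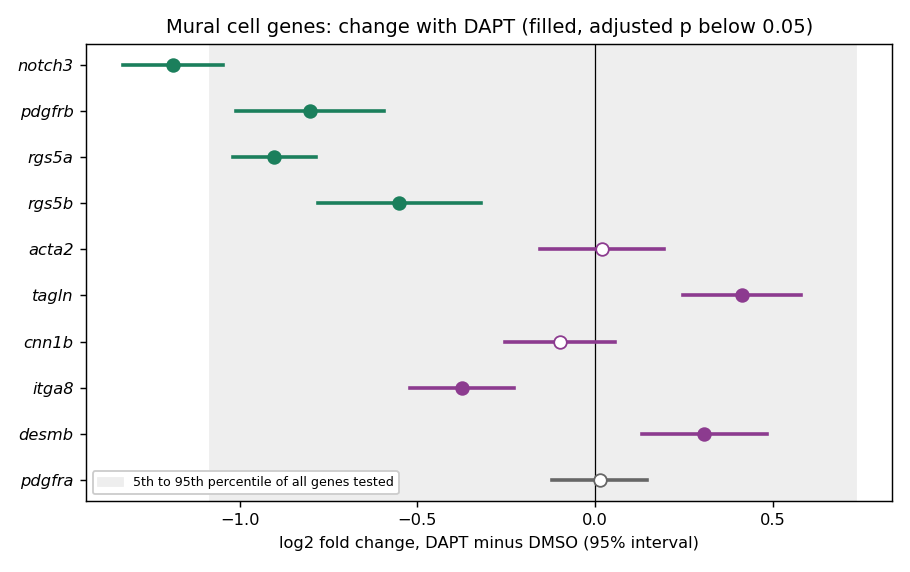
Points are log2 fold changes (DAPT minus DMSO) of the 10 genes with 95% intervals, filled where the adjusted p was below 0.05, and the grey band spans the 5th to the 95th percentile of all genes tested (-1.08 to 0.73). The 4 pericyte genes lie at -0.55 or lower, notch3 lies outside the band, and the 5 smooth muscle genes lie between -0.37 and 0.41.

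Among the smooth muscle genes, acta2 (gene ID 322509), which encodes smooth muscle alpha actin, was the most abundant and had no detectable difference. It measured 569.8, 623 and 504 CPM with DMSO and 598, 535 and 589 CPM with DAPT. Each DAPT library lay within the range of the DMSO libraries. The log2 fold change was 0.02 ± 0.08 (adjusted p = 0.858), with a 95% interval of -0.15 to 0.19, which does not reach the fall of any pericyte gene. Its sign was negative with library totals alone (-0.08) and on deposited TPM (-0.13), and in neither case did it pass. It had 10962 reads or more in every library.

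The gene tagln (gene ID 751758) encodes transgelin, an actin-binding protein of contractile cells, and it rose. It measured 114, 113 and 98.3 CPM with DMSO and 158, 133 and 142 CPM with DAPT, so that the lowest DAPT library exceeded the highest DMSO library. The log2 fold change was 0.41 ± 0.08 (adjusted p = 0.000815), and 13.3% of all genes tested had a higher one. The desmin gene desmb (gene ID 768287), whose product forms intermediate filaments in muscle, measured 38.6, 44.3 and 36.0 CPM with DMSO and 52.0, 45.6 and 49.5 CPM with DAPT. The closest libraries of the groups, DMSO replicate 2 and DAPT replicate 2, were little apart. It rose by 0.31 ± 0.08 on the log2 scale (adjusted p = 0.00775), and this call was lost on deposited TPM (0.15, limma adjusted p = 0.173).

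The calponin gene cnn1b (gene ID 572250), whose product binds actin in smooth muscle, measured 91.1, 104 and 86.0 CPM with DMSO and 90.0, 84.8 and 87.9 CPM with DAPT. The groups overlapped, and its log2 fold change of -0.10 ± 0.07 did not pass (adjusted p = 0.275; 95% interval -0.25 to 0.05). It passed as lower when only library totals were used for scaling (-0.20, adjusted p = 0.0295) and on deposited TPM (-0.24 with a pseudocount of 1, limma adjusted p = 0.0269).

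The integrin gene itga8 (gene ID 100141346) was the smooth muscle gene that fell. Its product pairs with integrin beta 1 and binds RGD motifs in matrix proteins such as nephronectin. It measured 35.8, 35.4 and 33.5 CPM with DMSO and 27.2, 25.1 and 28.4 CPM with DAPT. The groups did not overlap, and the level fell to 77.1% of that with DMSO (-0.37 ± 0.07, adjusted p = 0.000706). Its 95% interval, -0.52 to -0.23, overlapped those of rgs5b and cnn1b. It lay below those of acta2, tagln and desmb and above those of notch3, pdgfrb and rgs5a.

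The receptor gene pdgfra (gene ID 386856) binds PDGF-A and PDGF-C and marks fibroblast-like mesenchyme, neural crest derivatives and oligodendrocyte precursors. It measured 68.2, 70.2 and 73.2 CPM with DMSO and 74.9, 66.3 and 72.2 CPM with DAPT. The groups overlapped widely, and the log2 fold change was 0.01 ± 0.06 (adjusted p = 0.884; 95% interval -0.12 to 0.15), with a negative sign that did not pass with library totals alone (-0.09) and on deposited TPM (-0.14). In the same libraries 4 of 8 fibroblast markers fell and 4 did not pass. Their summed level went from 2837 to 3524 TPM with DMSO to 1861 to 2367 TPM with DAPT. Most of that sum was col1a1a, with a mean of 2496 TPM with DMSO and 1677 TPM with DAPT. The gene col1a1a was named after its values were seen. Of the 4 oligodendrocyte lineage markers 2 fell and 2 did not pass, and of 4 cartilage markers 3 rose and 1 fell. Over all genes tested, 24.3% fell and 22.4% rose. None of these markers was at 0, and their part in the pdgfra result was not tested.

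Of the 6 PDGF ligand genes, 1 rose and 5 did not pass, where 22.4% of all genes tested rose. Their median log2 fold change was -0.01. The genes pdgfba and pdgfbb, which encode the PDGF-B that signals to pdgfrb, had log2 fold changes of 0.05 ± 0.08 (adjusted p = 0.635) and -0.07 ± 0.09 (adjusted p = 0.591). The gene that rose was pdgfd, from 4.61 ± 0.647 to 6.11 ± 0.355 CPM (0.41 ± 0.13, adjusted p = 0.0234). That call was lost without DMSO replicate 3 (adjusted p = 0.0744), DAPT replicate 2 (0.0807) or DAPT replicate 3 (0.0609), with DESeq2 (0.0607), with library totals alone (0.0653) and on deposited TPM (0.121). The genes pdgfaa, pdgfab and pdgfc, whose products signal mainly to pdgfra, did not pass, with values of -0.22 ± 0.15, 0.12 ± 0.08 and -0.20 ± 0.09. Of these, pdgfc passed as lower without DMSO replicate 3 (-0.24, adjusted p = 0.0475), with unscaled library totals (-0.29, adjusted p = 0.0165) and on deposited TPM (-0.32, limma adjusted p = 0.00898). Counts of pdgfaa and pdgfba include fractional values.

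Compared per transcript length, the smooth muscle genes acta2 and tagln stood far above the rest. With DMSO the order of mean TPM was acta2 (641), tagln (270.3), desmb (38.8), rgs5a (38.4), pdgfra (32.6), rgs5b (27.0), cnn1b (26.5), notch3 (22.0), itga8 (10.5) and pdgfrb (6.36). Of neighbours in that order, desmb and rgs5a overlapped between libraries, as did pdgfra and rgs5b, and rgs5b and cnn1b. With DAPT the order became acta2 (583), tagln (322), desmb (43.1), pdgfra (29.5), cnn1b (22.3), rgs5a (18.4), rgs5b (16.5), notch3 (8.68), itga8 (7.28) and pdgfrb (3.21), and no neighbours overlapped. In that order rgs5a stood below pdgfra and cnn1b, both of which it had exceeded with DMSO, and rgs5b stood below cnn1b, with which it had overlapped.

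Setting pericyte genes against smooth muscle genes within a library removes the scaling between libraries. The mean log2 TPM of the 4 pericyte genes less that of the 5 smooth muscle genes was -1.85, -2.08 and -1.70 in DMSO replicates 1 to 3, and -2.84, -2.69 and -2.85 in DAPT replicates 1 to 3. The groups did not overlap, and the mean was -1.88 ± 0.19 with DMSO and -2.79 ± 0.09 with DAPT (SD, n = 3), a difference of -0.92. As sums, the pericyte genes went from 88.3 to 100.0 TPM with DMSO to 46.5 to 47.1 TPM with DAPT, while the smooth muscle genes, most of whose sum is acta2 and tagln, stood at 906 to 1072 and 892 to 1035 TPM. No test was made of these sums, since the genes were chosen with earlier results of these data known. The differences and sums compare gene groups and are not measures of cell numbers. They cover only these 4 and 5 genes. The 15 other pericyte genes and the 25 other smooth muscle genes, described below, had similar median log2 fold changes, at 0.0864 and 0.0911.

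Markers of the endothelium, which pericytes cover, moved the other way from the 4 pericyte genes. The 15 other pericyte genes, described below, had a median log2 fold change of 0.09. Their summed level was 306 to 347 TPM with DMSO and 337 to 362 TPM with DAPT, with overlap. They are not part of the differences given next. Of 10 endothelial markers 7 rose and 3 did not pass, where 22.4% of all genes tested rose. None of the 10 was at 0, and their summed level went from 284 to 340 TPM with DMSO to 402 to 447 TPM with DAPT. The mean log2 TPM of the pericyte genes less that of these markers was -0.72, -0.73 and -0.34 in DMSO replicates 1 to 3 and -1.99, -1.89 and -2.05 in DAPT replicates 1 to 3. DMSO replicate 3 stood apart within its group, yet every DMSO library was above every DAPT library. For the smooth muscle genes the same difference was 1.28 ± 0.12 with DMSO and 0.82 ± 0.03 with DAPT (SD, n = 3), also without overlap.

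**Figure D3:**
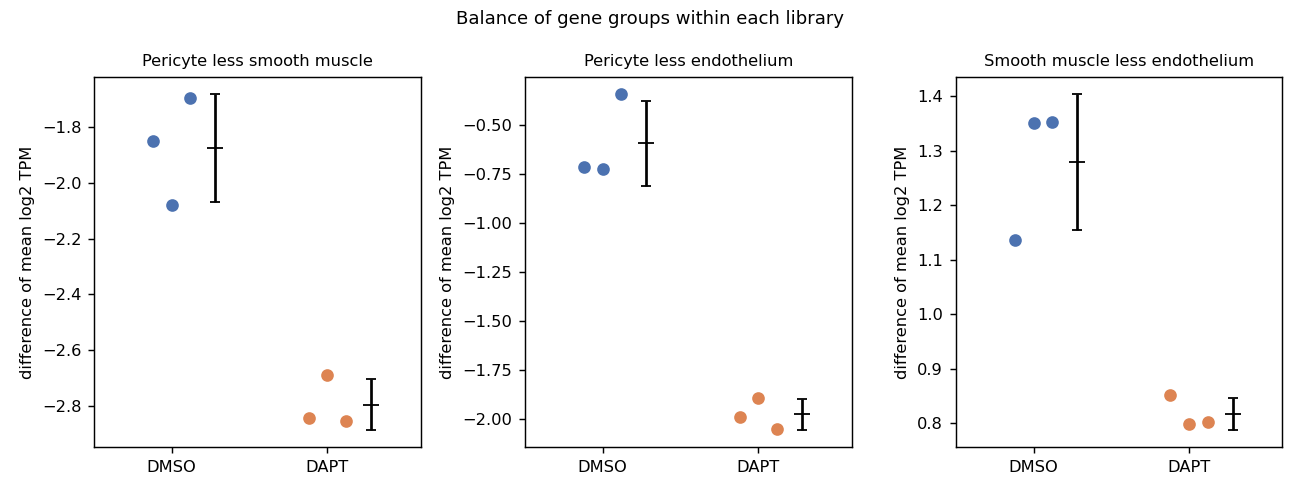
Each point is 1 library, and the vertical axes give the difference between the mean log2 TPM of a pair of gene groups, with the mean and SD as a bar; the axes do not start at 0. Pericyte genes less smooth muscle genes lie between -2.08 and -1.70 with DMSO and between -2.85 and -2.69 with DAPT, and the groups do not overlap in any panel.

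Within gene families, the shares of notch3, pdgfrb and rgs5a were lower with DAPT, as were those of the smooth muscle genes desmb, itga8 and cnn1b. The gene notch3 made up 26.0% ± 1.29 of the summed TPM of the 4 Notch receptor genes with DMSO and 13.9% ± 0.341 with DAPT (SD, n = 3). The receptor genes notch1a and notch1b did not pass, at 0.03 ± 0.06 and -0.02 ± 0.09, while notch2 fell by 0.18 ± 0.06 on the log2 scale (adjusted p = 0.0334), a call lost without any 1 library other than DMSO replicate 3 (adjusted p = 0.0651 to 0.141). The share of pdgfrb in the sum with pdgfra went from 16.4% ± 0.842 to 9.83% ± 0.775, and that of rgs5a in the sum with rgs5b from 58.8% ± 2.92 to 52.8% ± 1.28. In these 3 families the libraries of the groups did not overlap, nor did they for the shares of desmb, itga8, cnn1b and acta2 given below. For cnn1b and acta2 the closest libraries of the groups were nearly equal. No test was made of the shares. The share of desmb in the sum with desma went from 12.7% ± 0.787 to 10.9% ± 0.594, while desma, the desmin gene with the higher level here, rose by 0.56 ± 0.08 (adjusted p = 0.000137). The share of itga8 in the sum with the integrin genes itga5 and itgav, which also bind RGD motifs, went from 10.6% ± 0.216 to 8.14% ± 0.415, while neither itga5 nor itgav passed, at 0.08 ± 0.06 and 0.03 ± 0.06.

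The share of tagln in the 4 transgelin genes overlapped between groups, at 58.7% ± 0.839 and 60.6% ± 2.61, and tagln2, which is more widely expressed, rose by 0.31 ± 0.06 (adjusted p = 0.00123). The share of acta2 among the 5 muscle actin genes summed here (acta2, acta1a, acta1b, actc1a and actc1c) was higher with DAPT. It was 21.6% ± 1.46 with DMSO and 24.0% ± 1.26 with DAPT, and it holds only for this choice of genes. Its closest libraries of the groups were both at 22.5%. The share of cnn1b in the 5 calponin genes was 8.46% ± 0.800 with DMSO and 7.43% ± 0.404 with DAPT. Its closest libraries were at 7.83% with DMSO and 7.72% with DAPT. The other calponin 1 gene, cnn1a, was at a low level and fell from 3.05 ± 0.238 to 0.698 ± 0.356 CPM (-2.11 ± 0.28, adjusted p = 7.46e-05). Of all 19 paralogues 5 rose, 5 fell and 9 did not pass, with a median log2 fold change of 0.03, which is near the shares over all genes tested (22.4% higher and 24.3% lower). The 5 that fell were notch2, rgs2, cnn1a, cnn3b and actc1a, and 3 fell without DMSO replicate 1 and without DAPT replicate 3. Over all genes tested, 4821 and 4386 fell in those fits, against 5362 in the main fit. The 5 that rose were tagln2, cnn3a, desma, acta1a and actc1c, of which cnn3a and acta1a did not pass on deposited TPM. Counts of notch2, acta1b and actc1a include fractional values.

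**Figure D4:**
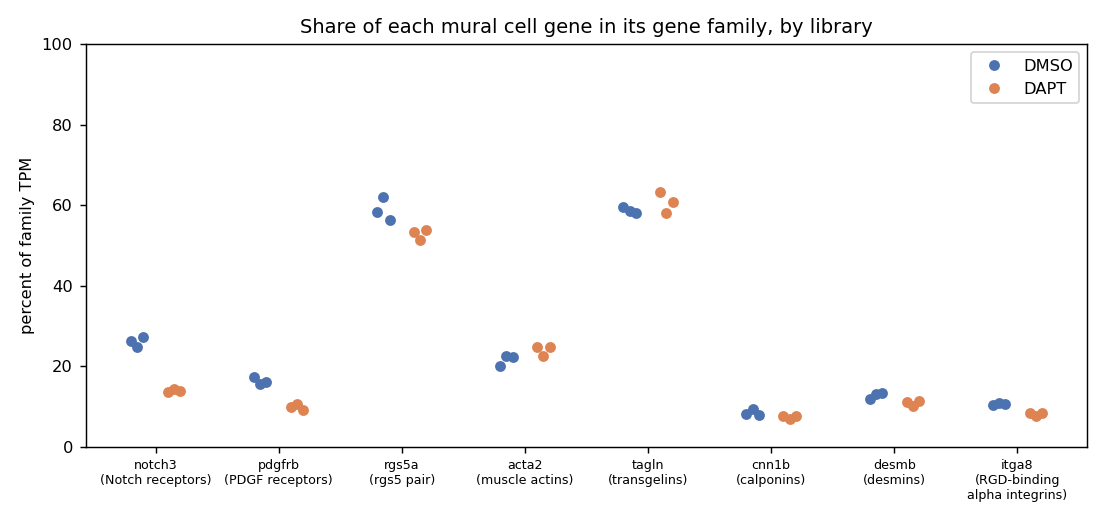
Each point is the percent that a mural cell gene makes up of the summed TPM of the genes compared from its family. Points are single libraries, with DMSO in blue and DAPT in orange. The share of notch3 lies at 24.6% to 27.2% with DMSO and 13.7% to 14.3% with DAPT, and that of tagln overlaps between groups.

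Beyond the 4 pericyte genes, 15 other genes known from pericytes were measured. Among them 4 rose, 2 fell and 9 did not pass, where 22.4% of all genes tested rose and 24.3% fell, so these counts do not set the list apart. Their median log2 fold change was 0.09. The gene kcnj8, whose product is the pore of a vascular ATP-sensitive potassium channel, fell from 2.29 ± 0.232 to 1.13 ± 0.0999 CPM (-1.01 ± 0.20, adjusted p = 0.00124). Its partner subunit gene abcc9, at a higher level, had a value of -0.14 ± 0.08 and did not pass (adjusted p = 0.176), nor did ndufa4l2a, a pericyte marker whose counts include fractional values (-0.18 ± 0.13, adjusted p = 0.273). The Notch target gene heyl, at a low level, went from 0.952 ± 0.169 to 0.560 ± 0.149 CPM and did not pass (-0.77 ± 0.30, adjusted p = 0.0533), though it passed as lower with unscaled library totals (adjusted p = 0.0339), without DAPT replicate 2 (0.0406) and on deposited TPM (0.0128). These 3 genes were named after their values were seen. The genes abcc9 and ndufa4l2a both passed as lower on deposited TPM (limma adjusted p = 0.0269 and 0.0354), and abcc9 also without DMSO replicate 3 (-0.23, adjusted p = 0.0115) and with unscaled library totals (-0.24, adjusted p = 0.0225).

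The forkhead factor gene foxf2a, known from brain mural cells and from gut mesenchyme, rose from 14.4 ± 0.106 to 24.7 ± 1.68 CPM (0.78 ± 0.08, adjusted p = 5.97e-06). The aminopeptidase genes anpepa and anpepb rose by 0.74 ± 0.08 and 0.73 ± 0.08. Aminopeptidase N is known from pericytes and also from the brush border of the gut. All 4 gut epithelium markers rose, where 22.4% of all genes tested rose, and none was at 0. Their sum went from 740.1 to 803 TPM with DMSO to 830.2 to 918 TPM with DAPT. Most of that sum was fabp2, with a mean of 629 TPM with DMSO and 623 TPM with DAPT. In CPM fabp2 rose by 0.17 ± 0.06 (adjusted p = 0.0288), and it was named after its values were seen. With library totals alone 3 of the 4 markers rose, where 3362 of all genes tested rose. The part of gut tissue in the rises of foxf2a, anpepa and anpepb was not tested. The other gene that rose was foxf2b and the other that fell was foxc1b, both named after their values were seen. The count of genes that fell was 1 without DMSO replicate 1, DAPT replicate 1 or DAPT replicate 3. It was also 1 with DESeq2 and with no or a stricter filter on low counts. It was 4 without DMSO replicate 3 and with library totals alone, and 6 on deposited TPM. Over all genes tested, 5362 fell in the main fit and 5106 without DMSO replicate 3. With library totals alone 6973 fell, and 7872 on log2(TPM + 1).

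Among 25 other smooth muscle genes, 7 rose and 6 fell, 12 did not pass, and the median log2 fold change was 0.09. These counts are near the shares over all genes tested, 22.4% higher and 24.3% lower. The smooth muscle myosin heavy chain gene myh11a had a value of 0.12 ± 0.07 and did not pass (adjusted p = 0.169), with a negative sign on deposited TPM (-0.04), while myocd, which encodes a coactivator of smooth and heart muscle genes, rose by 0.35 ± 0.09 (adjusted p = 0.00826), a call lost on deposited TPM (adjusted p = 0.137). These 2 genes were named after their values were seen. The gene foxf1, a forkhead factor of visceral mesoderm, rose from 27.5 ± 1.75 to 45.6 ± 3.24 CPM (0.73 ± 0.07, adjusted p = 7.32e-06). The matrix genes fbln5 and elna, which encode fibulin 5 and an elastin, fell by 0.89 ± 0.14 and 0.73 ± 0.12 on the log2 scale. The other genes that fell were cnn1a, myh11b (-1.46 ± 0.35, at 0.842 CPM with DMSO), smtnb (-0.27 ± 0.09) and mylka (-0.25 ± 0.09). Those that also rose were smtna (0.57 ± 0.14), srfb (0.59 ± 0.15), flna (0.45 ± 0.09), tpm2 (0.36 ± 0.06) and vcla (0.31 ± 0.06). Apart from cnn1a, the genes in these lists were named after their values were seen. All 6 heart muscle markers rose, with a sum of 2885 to 3511 TPM with DMSO and 5377 to 5616 TPM with DAPT. Of 6 skeletal muscle markers 4 rose and 2 did not pass. Their sum overlapped between groups, at 5170 to 6568 TPM with DMSO and 6461 to 7518 TPM with DAPT. Several contractile genes are shared with those tissues, and their part in the smooth muscle values was not tested.

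**Figure D5:**
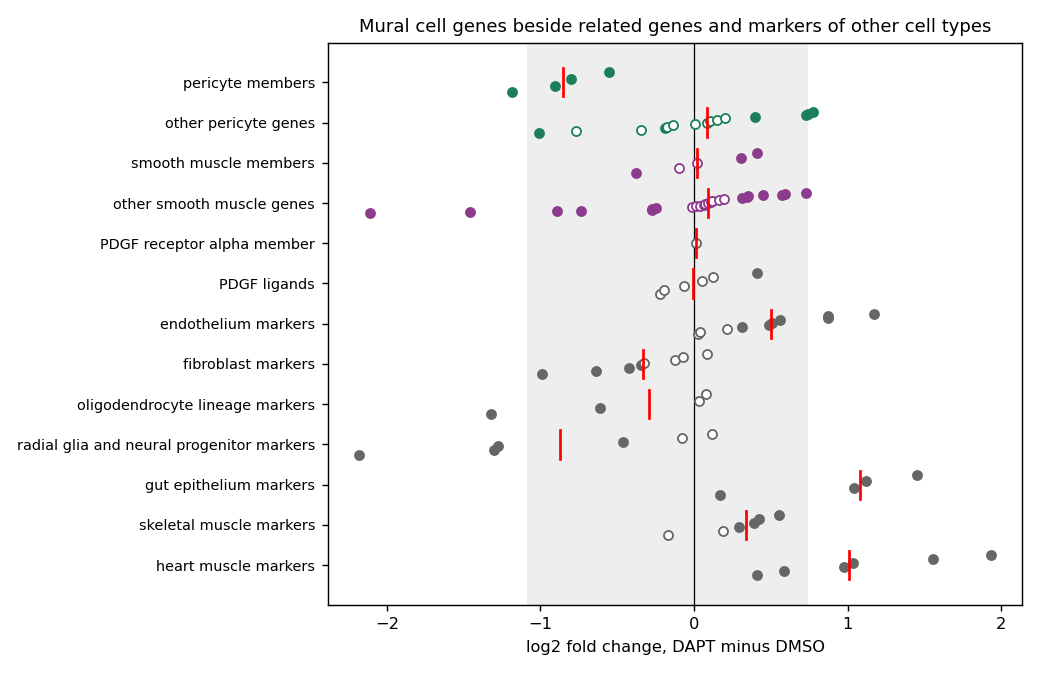
Each point is the log2 fold change (DAPT minus DMSO) of 1 gene, filled where the adjusted p was below 0.05, in rows for the 10 mural cell genes (members), related genes and markers of other cell types; red lines are row medians and the grey band spans the 5th to the 95th percentile of all genes tested. The 4 pericyte members all lie below 0 with a median of -0.85, while the 15 other pericyte genes lie on both sides with a median of 0.09.

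Of 9 genes for known partners and ligands of the integrin encoded by itga8, 2 rose, 5 fell and 2 did not pass, with a median log2 fold change of -0.25, beside 22.4% higher and 24.3% lower over all genes tested. The integrin beta 1 genes went opposite ways, as itgb1b rose by 0.35 ± 0.07 (adjusted p = 0.00114) and itgb1a, at the higher CPM, fell by 0.25 ± 0.05 on the log2 scale (adjusted p = 0.00226). Per transcript length itgb1b was the higher, at 75.0 against 43.0 TPM with DMSO and 86.0 against 32.9 TPM with DAPT. The nephronectin gene npnt did not pass (0.07 ± 0.08, adjusted p = 0.509), with a negative sign with library totals alone and on deposited TPM. The genes itgb1a and npnt were named after their values were seen. The fibronectin gene fn1b rose by 0.54 ± 0.09 (adjusted p = 0.000442). The vitronectin genes vtna and vtnb, whose products are plasma proteins made mainly by the liver, had values of -1.25 ± 0.10 and -0.70 ± 0.09, both passing (adjusted p = 1.21e-06 and 5.04e-05).

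Profiles across the 6 libraries were compared with those of 12067 genes with a mean of at least 10 CPM, by the root mean square difference of log2 CPM from the DMSO mean. The genes nearest to notch3 were myb (0.0555), LOC100147849 (0.0638) and fmoda (0.0682), and those nearest to acta2 were ghrb (0.0341), fam20b (0.0342) and aplp2 (0.0396). With 6 libraries in 2 groups, such nearness is mostly that of the size of the group difference.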

How the data were processed

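The authors deposited read counts, FPKM and TPM per gene for 6 libraries, per the file headers. The deposited counts are unscaled and 15.2 to 16.0% of them are not whole, so they were read as estimated counts and rounded here. TPM and FPKM were calculated by the authors; FPKM was not used in any result. The submitters' processing notes name build GRCz11, edgeR, featureCounts 1.6.0 and STAR 2.7.1a; roles, annotation, strand setting and counting rules are not given in the sources used here. The test was that of edgeR 4.0.16 under R 4.3.3 (filterByExpr, TMM, quasi-likelihood F test, 4 residual degrees of freedom, Benjamini-Hochberg over 22092 genes, threshold 0.05). The standard error is the log2 fold change divided by the square root of F, and the 95% interval uses the moderated degrees of freedom. The code was tested on simulated data.

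The members and gene lists were chosen with earlier results of these data known. Named genes are all members, PDGF ligands and paralogues, and up to 4 genes with the smallest p of each other related list; genes named outside that rule are said to be. The symbol pdgfba was matched by gene ID, as was lmod1a. Alternatives were DESeq2 1.42.0, limma-voom and limma 3.58.1 on log2(TPM + pseudocount), other scalings and filters, each library left out and a replicate block. No sequence was used here.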

Additional observations from a re-analysis of the deposited data

How the results depend on the processing

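In 15 alternative fits, the falls of notch3 (-1.33 to -1.12), rgs5a (-1.05 to -0.89), pdgfrb (-0.97 to -0.73), rgs5b (-0.70 to -0.45) and itga8 (-0.53 to -0.33) and the rise of tagln (0.25 to 0.47) passed in all 15. Their largest adjusted p was 0.0187, in tagln. In the 6 fits that left out a library, 4 pericyte genes fell, 1 smooth muscle gene fell and 2 rose each time. Of the 22289 to 22374 genes tested in those fits, 4386 to 5253 fell and 4003 to 4876 rose. The smooth muscle genes that fell were 2 with library totals alone and on deposited TPM, and 1 rose on TPM. Over all genes 2611 were higher on TPM with either pseudocount, against 4940, and 7872 and 7867 lower, against 5362. With library totals alone 3362 were higher and 6973 lower. Calls that were higher made up 48.0% with TMM, 32.5% with library totals alone and 24.9% on TPM, and the median of all genes moved with them by -0.0981 and by -0.125 (pseudocount 1) or -0.151 (pseudocount 0.1) on the log2 scale. The TPM fits changed both the measure and the test.

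Some genes that did not pass changed sign, in no case with a pass. With library totals alone acta2 was -0.0756, pdgfra -0.0858, pdgfba -0.0482, notch1a -0.0637, cnn2 -0.0386, itga5 -0.0204, itgav -0.0683 and npnt -0.0291. On log2(TPM + 1) these 8 were -0.13, -0.14, -0.0943, -0.11, -0.0965, -0.0719, -0.12 and -0.0823, with pdgfab at -0.0134 and myh11a at -0.0415. On log2(TPM + 0.1) they were -0.13, -0.14, -0.10, -0.12, -0.0972, -0.0765, -0.13 and -0.0883, with pdgfab at -0.0144 and myh11a at -0.0422. Where only genes with 5 CPM in 3 libraries were kept, acta2 was -0.0043 and pdgfra -0.0124. With a library left out the ranges were -0.0574 to 0.0971 for acta2, -0.0235 to 0.0629 for pdgfra, -0.12 to 0.0247 for pdgfbb, -0.0055 to 0.0892 for notch1a, -0.12 to 0.0663 for notch1b and -0.24 to 0.11 for tagln3a.

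Same-numbered libraries did not deviate together (r = 0.00917, -0.0679 and -0.0255 over genes), and no library correlated best with the one of its own number, so the numbers were not taken as pairs. The replicate block left 4655 genes higher and 5061 lower and changed no call of the 10 members (notch3 -1.19, pdgfrb -0.80, acta2 0.02). Depth limits low genes such as cnn1a, kcnj8 and heyl, all under 4 CPM. Of the 10 endothelial markers 6 to 8 rose and none fell in any alternative. Over all genes tested, 2611 to 5054 rose in those fits.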
